A study of Mus musculus with 4 samples.

Results

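The comparison described here sets colonic against jejunal interstitial cells of Cajal (ICC) of heterozygous mice, and it rests on 2 of the 4 small RNA libraries of the study. Both libraries came from C57BL/6 mice aged 11 to 20 weeks that carried 1 mutant Lep ob allele (Lepob/+) and 1 KitcopGFP reporter allele, which the labels call healthy and, beside the same alleles, wild type. The other 2 libraries, from Lepob/ob mice with the same reporter, were used as a second pair for the same tissue contrast. GFP-positive cells were sorted from dissociated whole jejunum or whole colon, and RNA of 1 genotype was pooled (15 each, per the labels) into 1 library per tissue and genotype. No label says that muscle was separated from mucosa before the sort. All 982 entries of the deposited table, named after microRNAs (miRNAs), are members of the comparison. With 1 pooled library a side there is no replicate error, so every interval below is an exact 95% interval for counting error only. Fewer cells of a type and less RNA per cell cannot be told apart in such pools.

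MiRNAs are short RNAs cut from hairpin precursors. They guide Argonaute proteins to messenger RNAs, mostly through the seed, bases 2 to 8 of the mature strand, and lower the output of their targets. ICC set the electrical rhythm of gut muscle and depend on the receptor tyrosine kinase Kit, which mast cells also carry. The small and the large bowel differ in motor pattern, in their epithelium and in the Hox genes they express along the body axis.

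The jejunal library held 466329 miRNA counts out of 2068523 mappable reads, and the colonic library 716473 out of 2727038. The miRNA share of mappable reads was 22.5% in jejunum and 26.3% in colon. Levels are given as CPM, counts scaled to a common library total, after correction with trimmed mean of M-values (TMM) factors, on which 1 count was worth 2.28 CPM in jejunum and 1.52 CPM in colon. A count of 0, taken as up to 3 counts, allowed 6.84 and 4.55 CPM. Of the 982 entries, 485 had counts in both libraries, 117 in jejunum alone with at most 4 counts, 131 in colon alone with at most 8, and 249 in neither. Averaged over the 4 libraries, 322 entries reached 10 CPM. They carried 99.9% of the counts of either library, and ratios are given for these. The tables hold no messenger RNA, so Kit itself could not be checked, and no miRNA was taken as a marker of ICC.

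The miRNA profiles of colonic and jejunal ICC were close, and 284 of the 322 entries lay within 2-fold of each other. The 19 entries from 10000 CPM upwards, which include smooth muscle, Hox-encoded, let-7 and miR-125 miRNAs, differed by less than 1.5-fold. At least 2-fold lower in colon were all 6 entries past the filter from the miR-200 list and the list of miR-192, miR-194 and miR-215, known from epithelium, and 2 of the 3 of the miR-183 cluster. Of these 2, miR-96-5p would not reach the filter without the ob/+ jejunal library. Scaled to mappable reads, miR-192-5p, miR-194-5p and miR-200c-3p came to lie within 2-fold, at log2 ratios of -0.84, -0.94 and -0.94. In all, 26 entries were at least 2-fold lower in colon (8.07% of the 322) and 12 at least 2-fold higher (3.73%). The median log2 ratio of colon over jejunum was 0.05, with a range of -2.72 to 1.35. Every ratio is computed with a prior count of 2, which draws ratios of low counts towards 0. In the ob/ob pair 9 entries were at least 2-fold lower in colon (2.80%) and 16 at least 2-fold higher (4.97%), or 7.76% either way against 11.8% in ob/+. Both pairs depend on the scaling. Library totals alone moved the ob/ob median by 0.27 and the ob/+ median by -0.03, and the authors' factors by 0.12 and -0.07. Scaling to mappable reads moved the ob/ob median by 0.07 and the ob/+ median by 0.18, and median-of-ratios factors by 0.027 and -0.055.

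The mature sequences below belong to the miRNA groups described first and to the contrasts between arms and loci. They are shown 5′ to 3′ from RefSeq on GRCm38.p6, with the seed in capitals; 263 of the 322 entries matched 1 RefSeq sequence. The first set, lower in colon, holds the members of the miR-200 list, of the list of miR-192, miR-194 and miR-215, and of the miR-183 cluster that passed the filter, so that their seeds can be compared.
miR-200b-3p (chr4:156055685-156055706, minus strand): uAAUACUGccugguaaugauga
miR-200c-3p (chr6:124718324-124718346, minus strand): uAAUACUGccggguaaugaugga
miR-200a-3p (chr4:156054911-156054932, minus strand): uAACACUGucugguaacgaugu
miR-192-5p (chr19:6264857-6264877, plus strand): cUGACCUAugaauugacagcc
miR-215-5p (chr1:185313610-185313630, plus strand): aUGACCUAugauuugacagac
miR-194-5p (chr1:185313325-185313346 and chr19:6264658-6264679, plus strand at both): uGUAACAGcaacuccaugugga
miR-183-5p (chr6:30169711-30169732, minus strand): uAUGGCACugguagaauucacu
miR-96-5p (chr6:30169506-30169528, minus strand): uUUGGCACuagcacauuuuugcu
miR-182-5p (chr6:30165962-30165986, minus strand): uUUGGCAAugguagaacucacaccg
miR-200b-3p and miR-200c-3p share a seed, as do miR-192-5p and miR-215-5p, although the genes of either pair lie on different chromosomes. In the GENCODE M21 annotation of GRCm38 the Mir200a and Mir200b hairpins lie in introns of Ttll10, Mir215 overlaps an exon and Mir194-1 lies in an intron of the noncoding gene 2010103J01Rik, and the Mir183, Mir96 and Mir182 hairpins lie in no host gene on their strand.

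The second set is shown for its contrasts between arms, paralogs and loci.
miR-335-5p (chr6:30741314-30741336, plus strand, in an intron of Mest): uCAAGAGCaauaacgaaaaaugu
miR-10a-5p (chr11:96317186-96317208, plus strand): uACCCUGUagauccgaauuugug
miR-10b-5p (chr2:74726074-74726096, plus strand, in introns of Hoxd3 and Hoxd4): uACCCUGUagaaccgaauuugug
miR-10a-3p (chr11:96317227-96317248, plus strand): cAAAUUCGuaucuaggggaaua
miR-24-2-5p (chr8:84208839-84208860, plus strand): gUGCCUACugagcugaaacagu
miR-181a-1-3p (chr1:137966508-137966529, plus strand): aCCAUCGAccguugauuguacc
miR-181a-2-3p (chr2:38852785-38852806, plus strand): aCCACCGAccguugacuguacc
miR-10a-5p and miR-10b-5p share the seed. How reads that match near-identical miRNAs were assigned is not known from the sources used here.

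The spread of the ratios narrowed with abundance, as the plot of ratio against abundance shows. Those 19 entries had a median absolute log2 ratio of 0.11 and a range of -0.39 to 0.46. In the 33 entries from 1000 to 10000 CPM the median absolute ratio was 0.22, and the 99 from 100 to 1000 CPM had 0.31. The 146 entries from 10 to 100 CPM had 0.46. None of the 52 entries at 1000 CPM or more was at least 2-fold different, and 8 of the 99 between 100 and 1000 CPM were at least 2-fold lower in colon against 0 higher. Across the 322 entries, log2 CPM in jejunum and colon had a Pearson r of 0.98, a description across miRNAs of 2 libraries.

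**Figure D1:**
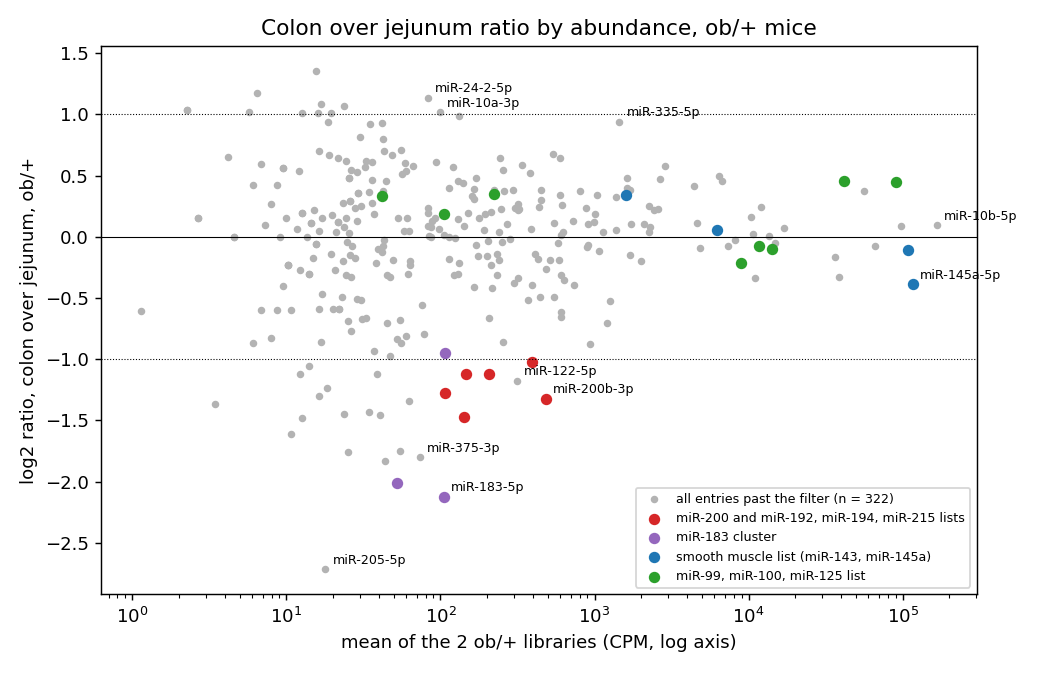
Each point is 1 of the 322 entries past the filter, placed by its mean level in the 2 ob/+ libraries (CPM, log axis) and its log2 ratio of colon over jejunum, with dotted lines at 2-fold. The lists of miR-200, of miR-192, miR-194 and miR-215, and of miR-183 lie at or below -0.95, while the smooth muscle list lies between -0.39 and 0.34.

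The miR-200 family holds epithelial cells in their epithelial state by repressing Zeb1 and Zeb2. All 3 of its 9 entries that passed the filter were at least 2-fold lower in colon, miR-200c-3p not when scaled to mappable reads (log2 ratio -0.94). miR-200b-3p had 302 counts in jejunum and 180 in colon of ob/+ mice, against 9 and 12 in ob/ob. The ob/+ counts were 689 and 273 CPM, 2.50-fold lower in colon (log2 ratio -1.32, counting interval -1.61 to -1.06). The ob/ob counts ran the other way, with an interval of -0.55 to 2.25 that spans 0. miR-200c-3p had 89 and 60 counts (log2 ratio -1.12, interval -1.65 to -0.67), and miR-200a-3p 67 and 40 (-1.27, interval -1.94 to -0.75). Together the 9 entries took 0.103% of the counts in jejunum and 0.0413% in colon. miR-429-3p, from the same locus as miR-200a and miR-200b, had 9 and 7 counts and did not pass the filter, and miR-141-3p had 2 and 3.

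miR-192, miR-194 and miR-215 are abundant in intestinal epithelium and are encoded in tandem at 2 loci. All 3 of their 7 entries that passed the filter were at least 2-fold lower in colon. Scaled to mappable reads, miR-192-5p and miR-194-5p were not (log2 ratios -0.84 and -0.94). miR-192-5p had 230 counts in jejunum and 169 in colon, or 525 and 256 CPM (log2 ratio -1.02, interval -1.33 to -0.74). For miR-194-5p the counts were 124 and 84, or 283 and 127 CPM (-1.12, interval -1.57 to -0.74). miR-215-5p, with 92 and 48 counts, had the lowest ratio of the 3 (-1.47, interval -2.06 to -1.01), and it was the member whose interval lay below 0 in the ob/ob pair too, with 50 and 21 counts (-0.80, interval -1.65 to -0.08). The ob/ob ratio of miR-192-5p was 0.03 (interval -0.89 to 0.93) on 26 and 20 counts.

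The polycistronic miR-183 cluster, with miR-96 and miR-182, is known from sensory organs and epithelia. Its median log2 ratio was -2.01 in the ob/+ pair, the value of miR-96-5p. That miRNA would not reach the filter without the ob/+ jejunal library, where it is highest, so the median is a description only. miR-183-5p had 76 counts in jejunum and 24 in colon, or 173 and 36.4 CPM, 4.36-fold lower in colon (log2 ratio -2.12, interval -2.98 to -1.57). miR-96-5p had 38 and 12 counts (-2.01, interval -3.32 to -1.28), and miR-182-5p 62 and 47 (-0.95, interval -1.57 to -0.42). All 3 were lower in colon beyond counting error, and miR-182-5p lay just inside 2-fold. In ob/ob mice the jejunum to colon counts were 3 and 2 for miR-183-5p, 4 and 0 for miR-96-5p and 9 and 0 for miR-182-5p. The interval of miR-182-5p lay below -0.57, while those of the other 2 spanned 0.

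**Figure D2:**
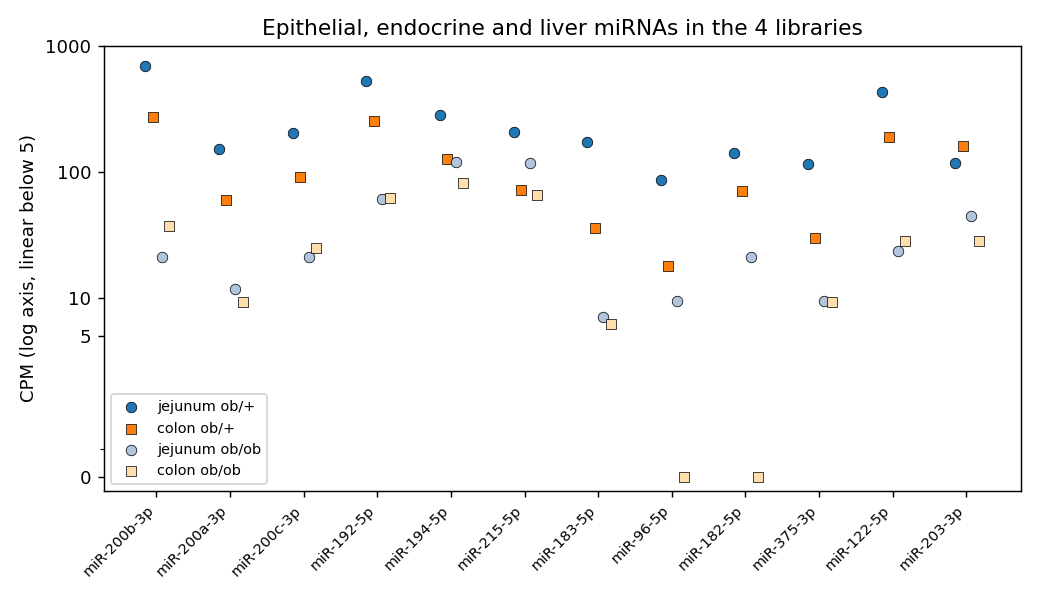
Levels in CPM (log axis, linear below 5) of 12 epithelial, endocrine and liver miRNAs, with 1 point for each of the 4 libraries. The ob/+ jejunum library holds the highest value for 11 of the 12, and miR-203-3p is highest in ob/+ colon.

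Single miRNAs of other secretory organs had the same direction in the ob/+ pair. miR-375-3p, which marks endocrine cells, had 51 counts in jejunum and 20 in colon, or 116 and 30.4 CPM (log2 ratio -1.80, interval -2.76 to -1.17). In ob/ob it had 4 and 3 counts. miR-122-5p, the main hepatocyte miRNA, had 190 and 125 counts (-1.17, interval -1.53 to -0.86), against 10 and 9 in ob/ob. miR-203-3p, known from keratinocytes and other epithelia, had 52 counts in jejunum and 107 in colon (0.44, interval -0.04 to 0.96). miR-205-5p, of squamous epithelium, had 15 counts in jejunum and 1 in colon (-2.72, interval -9.89 to -1.79). miR-7a-5p and miR-7b-5p, neuroendocrine miRNAs, were 1.28-fold and 1.41-fold lower in colon on 282 to 364 counts. Summed over the lists, the miR-200 entries stood at 1091 CPM in jejunum and 449 in colon, and miR-192, miR-194 and miR-215 at 1031 and 472. In ob/ob jejunum and colon the sums were 61.7 and 72.4 CPM for the first list and 311 and 227 for the second. The part of other sorted cells in these differences was not tested.

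Smooth muscle miRNAs were among the most abundant of both libraries. miR-143 and miR-145, which hold smooth muscle cells in their contractile state, took 23.7% of the counts in jejunum and 19.6% in colon with all their arms. miR-145a-5p had 57657 counts in jejunum and 66218 in colon of ob/+ mice, and 82400 and 42924 in ob/ob. In ob/+ it went from 131553 to 100503 CPM (log2 ratio -0.39, interval -0.40 to -0.37), and in ob/ob its ratio was -0.53. Its level was thus 1.31-fold lower in colon in ob/+, and lower in colon in both pairs. miR-143-3p, cut from the same transcript, had ratios of -0.11 and -0.48, the first of which turned to 0.08 scaled to mappable reads. The list median was -0.03 in ob/+, or 0.16 scaled to mappable reads, and -0.51 in ob/ob. Striated muscle miRNAs were scarce, with 0.0373% of the counts in jejunum and 0.0278% in colon. miR-133a-3p, the most abundant of them, had 156 and 185 counts (-0.34, interval -0.66 to -0.03).

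The Hox-encoded miRNAs, which lie inside the gene clusters that set position along the body axis, took 24.4% of the counts in jejunum and 25.4% in colon. Of their 7 arms past the filter, 2 were at least 2-fold higher in colon (3.73% of all 322 were) and 0 lower. The 2, miR-10a-3p and miR-615-3p, lay on the 2-fold line. They fell under it with library totals alone (0.98 and 0.97), median-of-ratios factors (0.96 for each) and the authors' factors (0.94 and 0.95). miR-10b-5p, the most abundant miRNA of both libraries, had 70721 counts in jejunum and 113432 in colon (log2 ratio 0.09, interval 0.08 to 0.11). miR-10a-5p had 41530 and 66200 counts (0.08, interval 0.07 to 0.10). Each thus differed by 1.07-fold or less between the tissues in ob/+, and both were lower in ob/ob colon, with ratios of -0.62 and -0.63. miR-196b-5p, encoded in the Hoxa cluster, went from 2364 to 2773 CPM in ob/+ (0.23, interval 0.12 to 0.34). miR-196a-5p, from the Hoxb and Hoxc clusters, had 365 and 416 counts and a ratio of -0.40 (interval -0.61 to -0.19). miR-615-3p, from Hoxc5, had 4 and 15 counts (1.01, interval -0.33 to 3.37). In ob/ob miR-196b-5p had 5 and 10 counts (1.14, interval -0.27 to 3.31) and miR-196a-5p 14 and 27 (1.25, interval 0.37 to 2.40), both at least 2-fold higher in colon, while miR-615-3p had 60 and 28 (-0.66).

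Of the 12 entries at least 2-fold higher in colon, 2 reached 100 CPM, and no count in colon exceeded 88. Both are minor arms of abundant miRNAs. miR-24-2-5p had 22 counts in jejunum and 76 in colon, or 50.2 and 115 CPM (log2 ratio 1.13, interval 0.50 to 1.96). miR-10a-3p had 28 and 88 counts, or 63.9 and 134 CPM (1.02, interval 0.44 to 1.73, or a ratio of 0.98 with library totals alone). In ob/ob the ratios were -0.31 and -0.14 with intervals that span 0, and that of miR-10a-3p was 0.14 with library totals alone. Just under the 2-fold line stood miR-335-5p, which is made from an intron of the imprinted gene Mest. It had 434 counts in jejunum and 1254 in colon of ob/+ mice, or 990 and 1903 CPM, and 426 and 264 counts in ob/ob. Its ratio was 0.94 in ob/+ (interval 0.78 to 1.10) and -0.28 in ob/ob (interval -0.51 to -0.06), so the 2 pairs lay on opposite sides of 0. With library totals alone its ob/ob ratio was 0.007 and its ob/+ ratio 0.91, both above 0. Next to it at the threshold stood miR-708-5p at 0.99 and miR-376b-5p at 1.01, and on the lower side miR-192-5p at -1.02 and mir-3470b at -0.98, named here after their values were seen.

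The ratios of the 2 arms of 1 hairpin had almost no correlation across hairpin names. Both arms passed the filter for 57 hairpin names, and in 51 of them the 2 ratios lay within 2-fold of each other, with a median absolute difference of 0.35 (log2). Over the 57 names the ratios of the 2 arms had a Pearson r of -0.02 and a Spearman rho of 0.01. Many minor arms rest on few counts, such as miR-25-5p (1 in jejunum and 4 in colon) and miR-322-5p (5 and 5). Counting error and the prior count of 2 weigh on such ratios, so the r cannot show whether the arms vary independently. miR-335-3p had 196 counts in jejunum and 223 in colon (log2 ratio -0.40, interval -0.69 to -0.12), while the 5p arm stood at 0.94. The 2 arms thus lay on opposite sides of 0 in ob/+, beyond counting error. In ob/ob the 5p arm stood at -0.28 and the 3p arm at -0.17. miR-10a-3p exceeded miR-10a-5p by 0.93 in ob/+ and by 0.49 in ob/ob. For miR-30e the 5p arm had 617 and 1222 counts (0.40, interval 0.26 to 0.54) and the 3p arm 148 and 171 (-0.37, interval -0.71 to -0.05), a pair named after its values were seen. In ob/ob these arms stood at -0.13 and -0.20. Minor arms also separate the loci of miR-181a, whose 5p arm is identical at both. miR-181a-1-3p had 13 and 36 counts (0.79, interval -0.07 to 1.92) and miR-181a-2-3p had 30 and 24 (-0.84, interval -1.75 to -0.09), and the first of them was named after its values were seen. In ob/ob their order was reversed, with ratios of -0.60 and 0.31.

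Several seed families stood above 0 together in ob/+ colon, by less than 2-fold. miR-125a-5p and miR-125b-5p, conserved relatives of lin-4, had ratios of 0.46 (interval 0.43 to 0.48) and 0.44 (interval 0.43 to 0.46). miR-125b-5p had 33764 counts in jejunum and 69049 in colon, or 77038 and 104799 CPM. miR-351-5p shares their seed and stood at 0.34. The miR-29 family, which represses collagen genes, had 3 members of 1 seed between 0.38 and 0.51, led by miR-29a-3p with 650 and 1273 counts. miR-26a-5p and miR-26b-5p stood at 0.38 and 0.47. miR-181a-5p and miR-181b-5p, known from lymphocyte signalling, stood at 0.46 and 0.48. The other members with their seed, miR-181c-5p and miR-181d-5p, stood at 0.04 and 0.05, and each at -0.02 with the authors' factors. In the ob/ob pair miR-125a-5p and miR-125b-5p gave 0.13 and 0.05 and miR-351-5p -0.10. miR-29a-3p, miR-29b-3p and miR-29c-3p gave -0.01, -0.17 and 0.91 there, the last on 14 and 21 counts. The ob/ob ratios were -0.08 and -0.05 for miR-26a-5p and miR-26b-5p, or 0.21 and 0.24 with library totals alone, and 0.16 and 0.37 for miR-181a-5p and miR-181b-5p. The let-7 family, differentiation miRNAs with a common seed, lay on both sides of 0. let-7f-5p had 18864 and 22600 counts (-0.33, interval -0.36 to -0.30), while let-7b-5p stood at 0.07.

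Among miRNAs described as targeting Kit mRNA, none of 8 arms past the filter was at least 2-fold different, and the list median was 0.31. Of all 322 entries 11.8% were at least 2-fold different, so the count does not set these 8 apart. miR-222-3p had 204 counts in jejunum and 481 in colon, or 465 and 730 CPM, 1.56-fold higher in colon (interval of the log2 ratio 0.41 to 0.89). miR-221-3p, from the same cluster and with the same seed, had 414 and 676 counts (0.12, interval -0.06 to 0.30). Both had intervals that span 0 in ob/ob. The X-linked cluster of miR-322 and miR-503 had a median of 0.58, with 7 of 9 arms above 0. At least 2-fold higher were 2 of the 9 (3.73% of all 322 were), each on 0 counts in jejunum and 3 in colon. miR-322-3p had 83 and 196 counts (0.64, interval 0.27 to 1.04). Of the cartilage-associated list, miR-455-3p had 1013 and 2279 counts (0.58, interval 0.47 to 0.69) and miR-140-3p 136 and 295 (0.52, interval 0.23 to 0.83). In the ob/ob pair these 2 had ratios of -0.38 and -0.71, so they too lay on opposite sides of 0 in the 2 pairs, also with library totals alone (-0.09 and -0.43 in ob/ob).

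**Figure D3:**
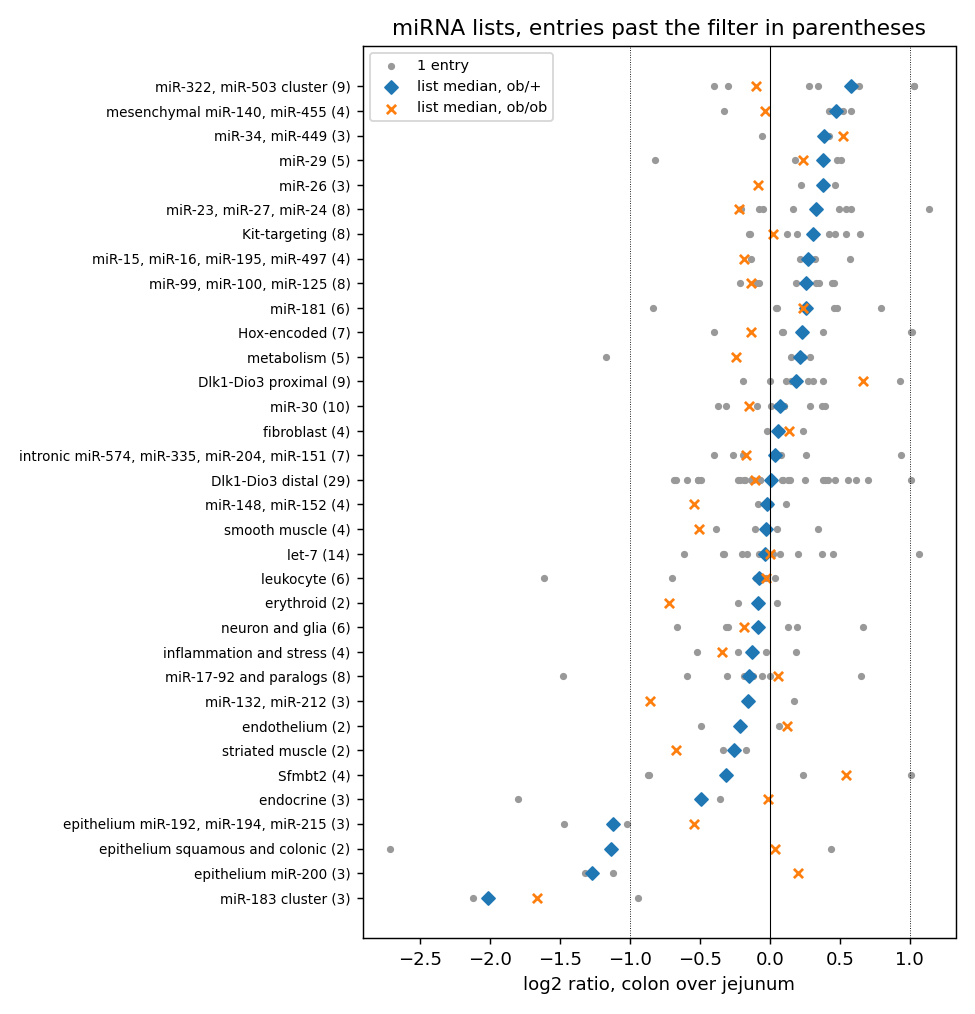
Log2 ratio of colon over jejunum for the miRNA lists with at least 2 entries past the filter; gray points are the entries in ob/+, diamonds the ob/+ medians and crosses the ob/ob medians. The miR-183 list, the miR-200 list, the list of miR-192, miR-194 and miR-215 and the squamous and colonic list have ob/+ medians below -1. The miR-183 list alone among them has an ob/ob median below -1, that of miR-96-5p, which would not reach the filter without the ob/+ jejunal library. The squamous and colonic median is that of 2 entries on opposite sides of 0, miR-203-3p (0.44) and miR-205-5p (-2.72).

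Markers of most other cells differed little. The fibroblast list, miR-199 and miR-214, summed to 4812 CPM in jejunum and 5001 in colon. At least 2-fold different were 0 of its 4 arms, beside 11.8% of all 322 entries. miR-199a-5p had 975 and 1508 counts (log2 ratio 0.04, interval -0.08 to 0.16). Erythroid miRNAs stood at 1401 and 1431 CPM, neuronal and glial ones at 493 and 472, and leukocyte ones at 787 and 721. Of the 614 and 943 erythroid counts, miR-486-5p had 593 and 925. Only the 2 arms of miR-486 passed the filter among the 5 erythroid entries, so the sum says little on miR-451a and miR-144. Within the leukocyte list miR-342-3p had a ratio of -0.05 (interval -0.28 to 0.18), and miR-223-3p, of myeloid cells, had 8 counts in jejunum and 2 in colon (-1.61, interval -5.86 to -0.26). miR-126a-3p, the endothelial miRNA, had 228 and 243 counts (-0.49, interval -0.76 to -0.23). The 5p arm of miR-126a had 42 and 66 counts and a ratio of 0.06. In ob/ob the 3p arm stood at 0.34 and the 5p arm at -0.10. miR-21a-5p, raised in injury and inflammation, had 650 and 679 counts and was 1.44-fold lower in colon (interval of the log2 ratio -0.68 to -0.37). miR-146a-5p stood at 0.19 and miR-132-3p, an activity-regulated neuronal miRNA, at -0.16.

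The remaining lists had few members past 2-fold, and of all 322 entries 3.73% were at least 2-fold higher and 8.07% lower. In the list of miR-23, miR-27 and miR-24 that was 1 of 8 arms, miR-24-2-5p above, while miR-24-3p, the main arm made at both loci, had 2328 and 4937 counts (0.50, interval 0.43 to 0.57). The imprinted Dlk1-Dio3 region had 38 arms past the filter in 2 lists, of which 1 was at least 2-fold higher in colon and 0 lower. miR-127-3p, its most abundant proximal miRNA, had 1939 and 3152 counts (log2 ratio 0.11, interval 0.03 to 0.20), and miR-541-5p of the distal part had 1665 and 3337 (0.41, interval 0.33 to 0.50). The proximal median was 0.18 and the distal median 0.01, the latter below 0 under 3 of 4 other scalings and -0.06 with the authors' factors. In the growth-promoting miR-17-92 family 1 of 8 arms, miR-20a-5p on 9 and 3 counts, was at least 2-fold lower. No arm past 2-fold was in the lists of miR-30, miR-15 and miR-16, miR-148 and miR-152, miR-132 and miR-212, miR-130 and miR-301, or miR-449 and miR-34. For the metabolic list 1 of 5 arms was past it, miR-122-5p described above, and miR-378a-3p and miR-103-3p stood at 0.22 and 0.24. Of 4 Sfmbt2 arms 1 was at least 2-fold higher, miR-467b-5p on 3 and 12 counts.

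The 40 entries without an arm suffix or named after a hairpin (lower-case mir) leaned to lower values in colon; this grouping was made after the values were seen. Of 27 entries without an arm suffix, 7 were at least 2-fold lower (25.9%) and 0 higher, with a median log2 ratio of -0.59. The 13 hairpin entries had 2 lower, 0 higher and a median of -0.56. Arm entries gave 17 of 282 past 2-fold on the lower side (6.03%) and 12 on the higher side, with a median of 0.09. miR-5099, the most abundant of the 27 and named after its values were seen, had 535 and 436 counts (-0.88, interval -1.07 to -0.70). In ob/ob the medians were -0.05 without a suffix, 0.08 for hairpins and -0.10 for arms. Hairpin entries took 0.301% of the counts in jejunum and 0.226% in colon. The part of the lower miRNA share of the jejunal library in these differences was not tested.

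**Figure D4:**
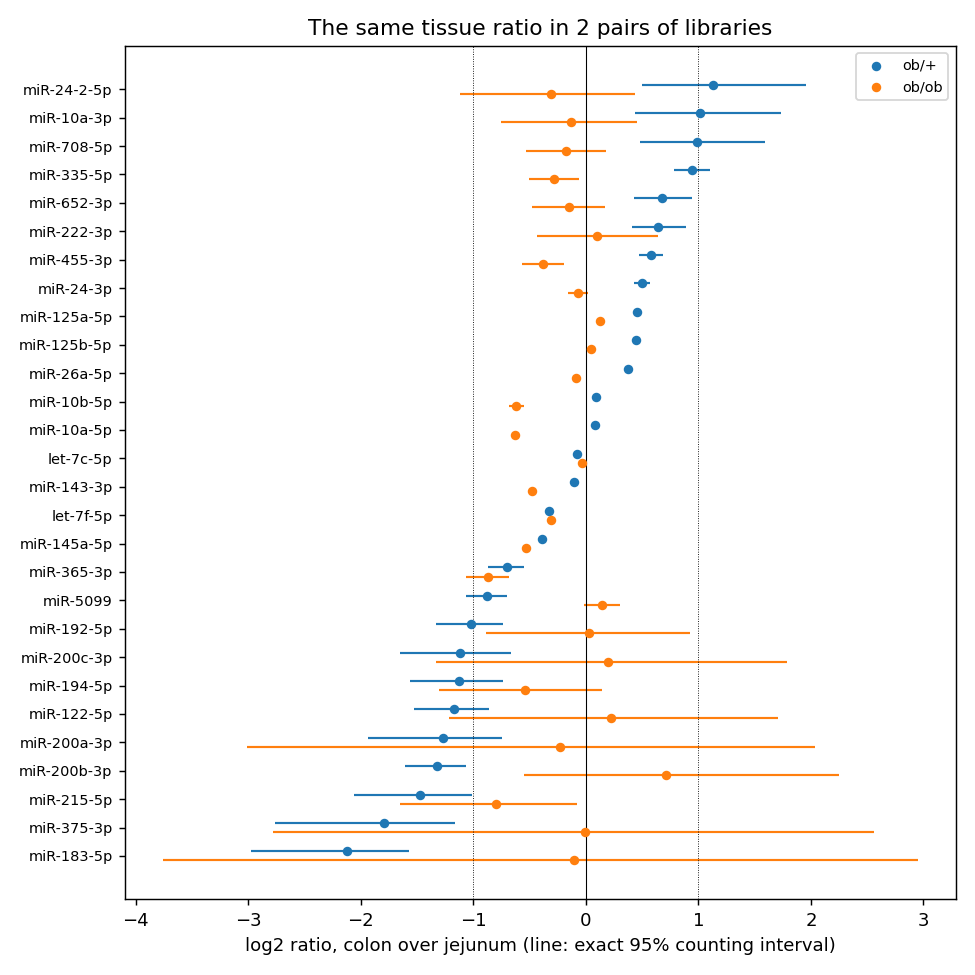
Log2 ratio of colon over jejunum for 28 miRNAs in the ob/+ pair and in the ob/ob pair, with lines for exact 95% counting intervals and dotted lines at 2-fold. For miR-145a-5p, let-7f-5p, miR-365-3p and miR-215-5p both intervals lie below 0, while miR-335-5p and miR-455-3p lie on opposite sides of 0, the first of them not with library totals alone.

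The ob/ob pair shares no library with the ob/+ pair and measured the same contrast a second time, on 433192 jejunal and 267076 colonic counts. Of the 12 entries at least 2-fold higher in ob/+ colon, 2 were so in ob/ob (4.97% of all 322 were), let-7f-1-3p and miR-467b-5p, and 5 were above 0. Of the 26 lower ones, 2 were at least 2-fold lower in ob/ob (2.80% of all 322 were), miR-96-5p and miR-6538, and 14 were below 0. The shares of all 322 above and below 0 in ob/ob are not given here, so the 5 and the 14 cannot be set against them. The ob/ob ratio of miR-96-5p rests on 4 counts against 0, with an interval that spans 0. Without the ob/+ jejunal library 5 of the 26 would not reach the filter, miR-96-5p among them, and without the ob/+ colonic library 2 of the 12 would not, so these counts are a description only. No entry was at least 2-fold different in opposite directions. Over the 322 entries the ratios of the 2 pairs had a Pearson r of 0.04 and a Spearman rho of -0.02, which describe 2 pairs of libraries. Over the 52 entries at 1000 CPM or more the Pearson r was 0.29. Counting intervals lay below 0 in both pairs for 17 entries, and above 0 in both for 5 (in ob/+ alone, 19.3% and 14.6% of the 322). Such shares for ob/ob alone are not given here. The 17 and the 5 thus cannot be set against the overlap that unrelated pairs would have. The 5 were miR-125a-5p, miR-125b-5p, miR-181a-5p, miR-181b-5p and let-7b-5p, of which let-7b-5p lay on the other side of 0 in ob/+ (-0.00119) with the authors' factors. The 17 included miR-145a-5p, miR-215-5p, miR-182-5p, let-7f-5p, miR-100-5p, miR-133a-3p and miR-365-3p, and 9 of the 17 kept their sign in both pairs under all 4 other scalings. miR-365-3p, named after its values were seen, had 655 and 603 counts in ob/+ and 789 and 325 in ob/ob, with ratios of -0.70 and -0.87.

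The 1 test that the design allows uses all 4 libraries, with genotype as a term and 1 residual degree of freedom. edgeR's quasi-likelihood test with Benjamini-Hochberg adjustment over the 322 entries called 0 higher and 0 lower in colon at a threshold of 0.05 (0% of the 322), and the smallest adjusted p was 0.888. At an unadjusted p under 0.05 it had 1 higher and 13 lower, DESeq2 had 0 and 6, and limma-voom 0 and 14. With no tissue effect a share of 0.05 of the 322 would pass, and none of these counts exceeds that share. miR-183-5p had a tissue effect of -1.997 ± 0.51 (log2, SE back-calculated from the F statistic; edgeR adjusted p = 0.888), and miR-96-5p of -2.35 ± 0.54 (edgeR adjusted p = 0.888). These 2 were called lower in colon by the same test with median-of-ratios factors, with the authors' factors and without hairpin entries. miR-215-5p had -1.23 ± 0.33 and miR-145a-5p -0.46 ± 0.12 (edgeR adjusted p = 0.888 for each), and miR-200b-3p -0.83 ± 0.52 (edgeR adjusted p = 0.951). miR-335-5p had 0.34 ± 0.35 over both genotypes (edgeR adjusted p = 0.951). Without the ob/+ jejunal library, and hence without the genotype term, the effects of miR-183-5p and miR-200b-3p were 1.54 and 2.76, a fit in which jejunum is ob/ob alone and tissue and genotype cannot be told apart.

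Base composition was set beside the ratios for the 263 entries with a sequence and for the 129 of them with a mean of at least 100 CPM in ob/+. Over the 263, the GC content of the mature strand had a Spearman rho of 0.04 with the ob/+ ratio and of 0.11 with the ob/ob ratio. Over the 129, the GC content of the mature strand had a Spearman rho of 0.19 with the ob/+ ratio and of 0.20 with the ob/ob ratio, and its length had 0.07 and 0.15. These are descriptions across miRNAs that share 2 libraries.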

How the data were processed

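The study holds 4 small RNA libraries of GFP-sorted cells, 1 for each tissue and genotype. Adapter trimming and removal of reads shorter than 15 nt came first, per the file headers, and the remaining mappable reads were counted against miRBase 20 and mouse genome mm9. The sources used here do not name the aligner or the counting program. Raw values as deposited are estimated counts: between 87.7% and 89.8% of the values above 0 per library are whole (within 1e-06). The authors' normalized signal equals the counts times 1 factor per library (1.05 for ob/+ jejunum and 0.661 for ob/+ colon), used here as an alternative. Read numbers at each step are in a separate deposited sheet. SI in the column names was taken as jejunum, by genotype.

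Counts were rounded and scaled by TMM factors over the 4 libraries (0.940 and 0.920 for ob/+ jejunum and colon). Entries averaging 10 CPM or more were kept. Ratios are differences of log2 CPM (prior count 2) and exact conditional binomial 95% intervals. Because PCR copies were not told apart by molecular identifiers, intervals and floors cover counting error only. The tissue effect over both genotypes was fitted with edgeR 4.0.16 (prior degrees of freedom 3.85, common biological coefficient of variation 17.3%), with DESeq2 1.42.0 and limma 3.58.1 as alternatives. Fits and intervals were tested on simulated counts.

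The members, lists and tests were chosen with earlier results of these data known; the endothelial list was respelled as miR-126a to match the table. Named were the 10 most abundant miRNAs, the largest ratios of 2-fold or more, up to 15 a direction, among miRNAs reaching 100 CPM in 1 ob/+ library, called miRNAs of the tissue test (there were 0), and up to 4 abundant members per list. Sequences and positions are RefSeq's on GRCm38.p6, and hosts are from GENCODE M21; the counts were made on mm9.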

Additional observations from a re-analysis of the deposited data

Results flagged for a closer look

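For 4 named miRNAs the colon over jejunum ratio of the ob/+ pair and that of the ob/ob pair lay on opposite sides of 0, with counting intervals that exclude 0 in both, and differed by at least 1 on the log2 scale. With 1 library for each tissue and genotype this difference was not tested. The log2 ratio of miR-335-5p was 0.94 in ob/+ and -0.28 in ob/ob, where it turned to 0.007 with library totals alone. The other 3 kept opposite signs in the 2 pairs under the 4 other scalings. miR-140-3p stood at 0.52 and -0.71. miR-221-5p, the minor arm of the Kit-targeting miR-221, had 0.55 and -0.91. miR-196a-5p, encoded in Hox clusters, had -0.40 in ob/+, where it had 365 and 416 counts, and 1.25 in ob/ob, where it had 14 and 27.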

How the results depend on the processing

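The 12 entries at least 2-fold higher in ob/+ colon became 5 when scaled by totals, 7 by median-of-ratios factors, 7 with the authors' factors, 24 with no abundance filter, 1 with a filter of 100 CPM and 1 with a prior count of 5. The 26 lower entries became 67 with no filter and 6 at 100 CPM. At 1.5-fold 35 were higher and 56 lower, and at 4-fold 0 and 3. The 2 entries higher in both pairs became 1 with totals, median-of-ratios or the authors' factors or without hairpin entries, 0 at 100 CPM and 7 at 1.5-fold. The 2 lower in both became 1 with totals or scaled to mappable reads, 7 with no filter, 0 at 100 CPM and 13 at 1.5-fold. The 5 lists with a median at least 2-fold lower became 3 scaled to mappable reads, 1 with no filter and 3 at 100 CPM. The tissue test called 2 lower, miR-183-5p and miR-96-5p, with median-of-ratios factors, with the authors' factors and without hairpin entries, at smallest adjusted p-values of 0.0316, 0.0406 and 0.0205, where the prior degrees of freedom were estimated as infinite. It called 0 either way with each library left out, where the lone library of a tissue is assumed to vary like the others. Without the ob/+ jejunal library the tissue effect changed sign for miR-24-2-5p (-0.055), miR-10a-3p (-0.17), miR-183-5p (1.54), miR-375-3p (1.03), miR-200b-3p (2.76), miR-200a-3p (1.501), miR-122-5p (2.10), miR-200c-3p (1.37) and miR-192-5p (1.28), a fit that by construction mixes tissue and genotype. Scaling to mappable reads moved the median ob/+ ratio by 0.18, and library totals alone moved the ob/ob median by 0.27. For other changes the cause was not tested. With 1 pooled library for each tissue and genotype there were no replicates to pair. The only pairing is that of the tissue fit itself, whose genotype term sets colon against jejunum within each genotype. Below 100 CPM most counts are under 100, which limits what a ratio can show.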
